A study of Mus musculus with 2 samples.

Results

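The cytosolic ribosomal protein genes were described member by member in single regulatory T cells (Tregs) of the mouse spleen. Members were taken by symbol: Rpl or Rps followed by a digit, and Rplp0, Rplp1, Rplp2 and Rpsa, with Rps6k kinases (10 symbols) and symbols carrying -ps (16 pseudogenes) left out. The rule found 87 of the 28692 genes in the deposited files. Of these, 77 encode core subunits, 46 of the large (60S) and 31 of the small (40S) subunit. The other 10 are Rpl10l, Rpl22l1, Rpl36al, Rpl39l, Rpl3l, Rpl6l, Rpl7l1, Rps19bp1, Rps27l and Rps27rt, which are paralogs, an annotated processed pseudogene (Rpl6l), a biogenesis factor or a binding partner that the symbol rule also takes.

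Tregs hold immune responses in check and are defined by Foxp3, a transcription factor. The cells came from spleens of male B6 Pparg-Tdt.Foxp3-Gfp mice, 8 weeks of age, which report Pparg (the nuclear receptor PPARg) through Tdt and Foxp3 through Gfp. One library holds PPARg-low Tregs and the other PPARg-negative Tregs, each from pooled spleens of 2 or 3 mice, so each group is 1 library and no difference has a replicate check. The deposited files of the PPARg-low library are tagged pos rather than low; the label's word is kept here, and the difference could not be settled. Intervals below are exact 95% intervals that cover counting error only, and no p-value was computed.

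A ribosome joins ribosomal RNA with a set of proteins that are needed in about equal numbers, and their messenger RNAs are among the most abundant of any cell. Most of these mRNAs begin with a C and a run of pyrimidines, the 5′ terminal oligopyrimidine (TOP) motif, through which the mTOR pathway sets their translation together. In T cells, ribosome production is known to increase when a resting cell is activated.

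With barcodes above 10% mitochondrial UMIs removed, 1619 PPARg-low cells with 2901710 UMIs and 2633 PPARg-negative cells with 5897260 UMIs remained, with medians of 1517 and 2171 UMIs per cell. Pparg had 43 UMIs in PPARg-low cells and 0 in PPARg-negative cells, where 0 allows up to 3 counts. Foxp3 had 100 and 146 UMIs, and the T cell and Treg list was present in both libraries (summed 10822 and 5734 CPM, UMIs per 1000000 UMIs of the library). Of other cell types, the B cell list summed to 33.8 and 29.0 CPM, the CD8 T cell list to 31.0 and 27.6 CPM, the NK list to 3.79 and 1.19 CPM with Ncr1 at 0, the erythroid list to 13.1 and 1.87 CPM, and the platelet genes Ppbp and Pf4 were at 0. The myeloid list summed to 275 and 148 CPM, of which Cst3 gave 777 of 799 and 857 of 873 UMIs and Csf1r 1 and 0. The libraries shared 5 barcode sequences.

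Ribosomal protein transcripts took a smaller part of the transcriptome in PPARg-low Tregs. They made up 629844 UMIs, 21.7% of the library (21.66 to 21.75), in PPARg-low cells, and 2053314 UMIs, 34.8% (34.78 to 34.86), in PPARg-negative cells, a ratio of 0.623. A PPARg-low cell had a median of 208 ribosomal protein UMIs (quartiles 86.0 and 590), against 732 (313 and 1100) in PPARg-negative cells. UMIs of all other genes differed less between the libraries, with medians of 1225 (792 and 1702) per PPARg-low cell and 1423 (957 and 1796) per PPARg-negative cell. All 77 core members had a ratio of PPARg-low over PPARg-negative CPM below 1, with intervals that did not reach 1; of all 9224 genes with 30 or more UMIs, 7.99% had such an interval below 1 and 38.7% one above 1. A difference was called by size, at 1.5 times or more with an interval clear of 1. By this rule 55 core members were lower in PPARg-low cells and 0 were higher, while 4.47% of the 9224 genes were lower and 24.2% were higher. The median ratio of the core members was 0.633 (log2 -0.66), against 1.22 (log2 0.29) over all 9224 genes, and relative to that all-gene median it was 0.519.

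Of all 87 members, 84 had 30 or more UMIs over both libraries; 56 of the 84 were lower and 0 higher. Rps3, at a ratio of 0.666, was the last member called lower and Rps27a, at 0.668, the first not called. The calls near this edge therefore separate members with nearly equal ratios. Levels are CPM, and since the 3′ chemistry counts one tag per molecule they were not divided by length. Core members spanned 815 to 8372 CPM in PPARg-low cells and 1159 to 14014 CPM in PPARg-negative cells, with medians of 2554 and 4093 CPM. The spread between the highest and the lowest core member was thus 10.3-fold in PPARg-low cells and 12.1-fold in PPARg-negative cells, much wider than the range of ratios, which ran from 0.481 to 0.867.

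**Figure D1:**
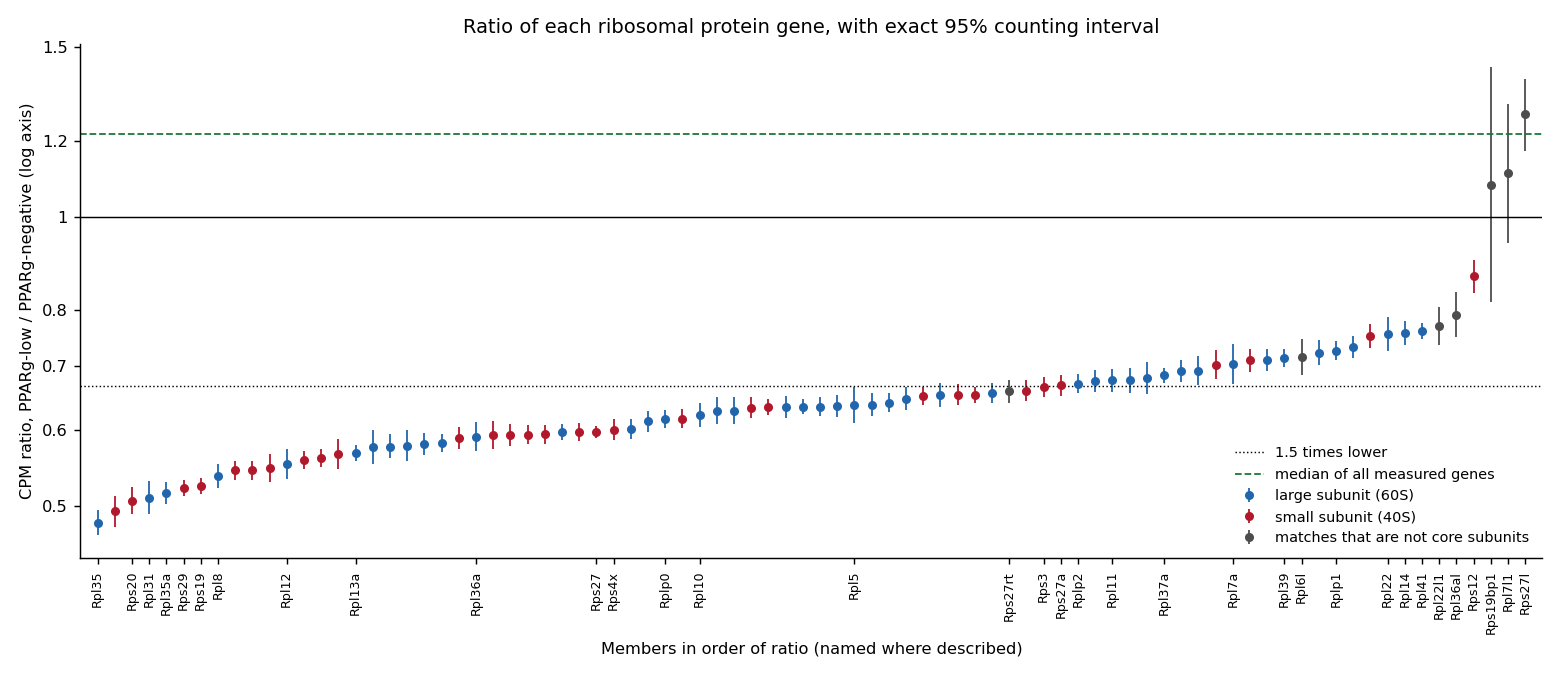
Ratio of CPM in PPARg-low over PPARg-negative cells (log axis) for the 84 members with 30 or more UMIs, ordered by ratio, with exact 95% counting intervals and names for those described in the text; colours mark large subunit, small subunit and matches that are not core subunits. All core members lie below 1 (0.481 to 0.867) and below the dashed median of all genes (1.22), and Rps27l (1.28) is the highest point.

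The most abundant member was Rps27, a zinc-binding protein of the 40S subunit. It had 24293 UMIs (8372 CPM) in PPARg-low cells and 82647 UMIs (14014 CPM) in PPARg-negative cells, a ratio of 0.597 (0.589 to 0.606). Rps27rt, a single-exon gene, had 2431 and 3692 CPM and a ratio of 0.659 (0.641 to 0.676). Its coding sequence is identical to that of Rps27 and the transcripts share an exact run of 341 bases, so the split of reads between them is uncertain; how reads that match several genes were counted is not given in the sources used here. Summed, Rps27 and Rps27rt had a ratio of 0.610 (0.602 to 0.618). Among the next members by level were Rps29 with 4475 and 8555 CPM (ratio 0.523), Rpl13a with 4578 and 8054 CPM (0.568), Rps19 with 4263 and 8120 CPM (0.525) and Rpl37a with 5138 and 7505 CPM (0.685). Rpl13a is also known for silencing inflammatory mRNAs outside the ribosome, and Rps19 is the gene most often mutated in human Diamond-Blackfan anaemia. Of the members just named, Rpl37a alone was not called lower. At the low end of the core members, Rpl7a had 815 and 1159 CPM (0.703) and Rpl5 937 and 1470 CPM (0.638).

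Rpl35, a protein at the rim of the tunnel through which the nascent chain leaves the 60S subunit, had the lowest ratio of all measured members. It had 5360 UMIs (1847 CPM) in PPARg-low cells and 22645 UMIs (3840 CPM) in PPARg-negative cells, a ratio of 0.481 (0.467 to 0.496). Rps20, a protein of the 40S head, had 1556 and 3068 CPM (0.507, 0.491 to 0.524). Both were close to 2 times lower in PPARg-low cells. Rpl31, beside the exit tunnel, had 1072 and 2100 CPM (0.510), Rpl35a 2356 and 4564 CPM (0.516) and Rpl8, a protein near the peptidyl transferase centre, 2042 and 3798 CPM (0.538). These, Rps29 and Rps19 were among the 8 lowest members by the interval bound nearest to 1.

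At the other end, Rps12 had the highest ratio of the core members, with 1243 CPM in PPARg-low cells and 1434 CPM in PPARg-negative cells (0.867, 0.834 to 0.901). Rps12 sits at the beak of the 40S subunit. Rps12-ps3, a pseudogene symbol outside the members, shares an exact run of 494 bases with Rps12 and had 732 and 796 CPM, a ratio of 0.920 (0.874 to 0.969), so the level of Rps12 is uncertain while both symbols had ratios above every other core member. Rpl41, the shortest ribosomal protein, had 5436 and 7145 CPM (0.761, 0.747 to 0.775). Rpl14 had 2226 and 2939 CPM (0.757) and Rpl22 had 1110 and 1470 CPM (0.755). Rpl22 is required for the development of αβ T cells in mice. These were below 1 in the whole libraries, and none was called lower.

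Among structural groups, 26 of 31 small subunit members were lower (median ratio 0.597) and 29 of 46 large subunit members (0.637). The counts of this and the smaller groups stand beside 55 of all 77 core members and 4.47% of all 9224 genes. Whether a group differs from the other core members was not tested. The small subunit made up 43.5% of the ribosomal protein UMIs in PPARg-low cells and 45.0% in PPARg-negative cells. Of 14 proteins of the 40S head, the part that swivels during translocation, 12 were lower (median 0.580); Rps12 and Rps27a were not. Of 8 proteins at the rim of the exit tunnel, 6 were lower (0.619), with Rpl35 lowest at 0.481 and Rpl22 highest at 0.755. The P-stalk recruits the elongation factors to the ribosome. Of its proteins, Rpl12 (1317 and 2378 CPM, 0.554) and Rplp0 (3817 and 6192 CPM, 0.616) were lower, while Rplp2 had 3165 and 4715 CPM (0.671) and Rplp1 3294 and 4537 CPM (0.726). The acidic tips Rplp1 and Rplp2 thus had higher ratios than the base protein Rplp0 and the neighbouring Rpl12, with intervals that do not overlap those of Rplp0 and Rpl12. Rpl5 and Rpl11, which with 5S ribosomal RNA also bind the p53 regulator Mdm2, had ratios of 0.638 and 0.676. The X-linked members had ratios of 0.591 (Rpl36a), 0.601 (Rps4x), 0.623 (Rpl10) and 0.713 (Rpl39), within the range of the autosomal members. Rps27a, made as a fusion with ubiquitin, had 3058 and 4577 CPM.

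The composition of the ribosomal protein pool was compared by dividing each member by the summed UMIs of all members, so that a shift common to all of them cancels. The shares sum to a whole and are not independent of each other. The share ratio was above 1 with its interval for 32 core members, below 1 for 32 and reached 1 for 13. Rpl35 made up 0.851% of the pool in PPARg-low cells and 1.10% in PPARg-negative cells (share ratio 0.772, 0.749 to 0.795), and Rps20 had a share ratio of 0.814. Rps12 made up 0.573% and 0.412% (1.39, 1.34 to 1.45) and Rpl41 2.50% and 2.05% (1.22, 1.20 to 1.24). The core ratios had no clear relation to gene structure: over the 77 core genes, Spearman's rho with coding length was 0.05, with transcript GC content 0.06 and with total UMIs -0.14. These are correlations across genes of the same libraries, which share depth and denominator.

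Of the matches that are not core subunits, Rps27l had 824 UMIs (284 CPM) in PPARg-low cells and 1312 UMIs (222 CPM) in PPARg-negative cells, and its ratio of 1.28 (1.17 to 1.39) was the highest of the members with 30 or more UMIs. Rps27l is a paralog of Rps27 and a known target of p53. Relative to the all-gene median its ratio was 1.05, and 1.06 when scaled to UMIs outside the members. Per 100 UMIs of Rps27 there were 3.39 UMIs of Rps27l in PPARg-low cells and 1.59 in PPARg-negative cells, and its share of the pool was higher by a factor of 2.05 (1.87 to 2.24). Divided by the pool in the same way, all 9224 measured genes had a median ratio of 1.96. The coding sequences of both genes, from GENCODE M21 transcripts (mm10), are printed to show where their reads differ. Both are 255 bases long, with 61 differences, 76.1% identity and no shared run over 11 bases in the transcripts. Capitals in the second sequence mark the bases that differ from Rps27, on chromosome 3; Rps27l lies on chromosome 9.
Rps27: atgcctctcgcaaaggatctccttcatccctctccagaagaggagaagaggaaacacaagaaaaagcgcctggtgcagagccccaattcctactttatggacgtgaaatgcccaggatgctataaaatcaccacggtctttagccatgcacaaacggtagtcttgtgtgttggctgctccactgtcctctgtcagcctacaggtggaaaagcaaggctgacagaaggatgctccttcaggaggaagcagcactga
Rps27l: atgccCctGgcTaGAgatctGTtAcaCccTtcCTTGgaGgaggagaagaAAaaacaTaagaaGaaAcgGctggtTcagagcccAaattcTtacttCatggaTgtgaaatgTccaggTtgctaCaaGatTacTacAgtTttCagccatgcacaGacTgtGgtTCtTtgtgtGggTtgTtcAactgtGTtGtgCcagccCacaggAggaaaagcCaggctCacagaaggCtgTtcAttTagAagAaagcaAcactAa

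The other measured matches outside the core had ratios below that of Rps27l, while all 7, Rps27l included, had pool share ratios above 1 with their intervals. Dividing by the pool, whose own share of UMIs was lower in PPARg-low cells, raises the ratio of every gene. Of all 9224 measured genes, 7707 had such a ratio above 1 with its interval, and the median was 1.96. Rpl22l1, which shares 67.5% of coding bases with Rpl22, had 856 and 1113 CPM (0.770, 0.735 to 0.806) and a pool share ratio of 1.23, and there were 77.2 of its UMIs per 100 of Rpl22 in PPARg-low cells and 75.7 in PPARg-negative cells. Rpl36al, with 87.9% identity to Rpl36a, had 640 and 809 CPM (0.791, 0.750 to 0.835), or 44.6 and 33.4 UMIs per 100 of Rpl36a, and a pool share ratio of 1.27 (1.20 to 1.34). Rpl6l, which shares an exact run of 354 bases with Rpl6 and is therefore uncertain, had 926 and 1295 CPM (0.715). Rpl7l1, a nucleolar relative of Rpl7, had 77.5 and 69.9 CPM (1.11, 0.939 to 1.31), and Rps19bp1, which binds Rps19, had 27.6 and 25.4 CPM (1.08, 0.816 to 1.43). Their pool share ratios were 1.78 (1.51 to 2.1) and 1.74 (1.31 to 2.30). Both CPM intervals include 1, and relative to the all-gene median these ratios turned to 0.910 and 0.889. Rpl39l had 7 and 4 UMIs. Rpl10l and Rpl3l, known from testis and from muscle, had 0 UMIs in both libraries, which allows up to 3 counts in each.

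The start sites of named members are shown because a run of pyrimidines there is the sequence feature the TOP motif rests on. Windows came from RefSeq (GRCm38.p6) and matched 66 of the 87 members by symbol, 57 of them core, with 78 windows. Each printed window runs from 15 bases before to 15 bases after the annotated start, in the direction of transcription. Capitals mark the longest run of C and T of 6 or more letters inside the printed bases, so a run that passes the edge is cut. Rpl35 lies at chr2:39005117-39005146 (minus strand), Rps27 at chr3:90213634-90213663 (minus), Rpl14 at chr9:120571502-120571531 (plus), Rps12 at chr10:23787195-23787224 (minus), Rpl22l1 at chr3:28805493-28805522 (plus), Rps27l at chr9:66946071-66946100 (plus) and Rpl7l1 at chr17:46782642-46782671 (minus). Windows without such a run are shown for Rps16 at chr7:28350674-28350703 (plus), Rpl41 at chr10:128549154-128549183 (minus) and a second annotated start of Rps27l at chr9:66946398-66946427 (plus).
Rpl35: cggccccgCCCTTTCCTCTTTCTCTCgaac
Rps27: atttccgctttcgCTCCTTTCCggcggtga
Rpl14: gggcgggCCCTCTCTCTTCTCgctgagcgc
Rps12: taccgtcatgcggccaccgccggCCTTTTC
Rpl22l1: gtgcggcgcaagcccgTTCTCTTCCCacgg
Rps27l: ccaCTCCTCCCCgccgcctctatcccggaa
Rpl7l1: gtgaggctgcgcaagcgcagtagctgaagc
Rps16: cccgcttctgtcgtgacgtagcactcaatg
Rpl41: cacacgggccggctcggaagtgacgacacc
Rps27l, second start: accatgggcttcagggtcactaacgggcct

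A run of 6 or more C or T letters, read on the transcribed strand within 20 bases either side of the start, was present in 59.0% of the members' windows and 62.7% of the core members' windows, against 37.5% of all 32851 promoter windows. Runs of 8 or more were present in 39.7%, 43.3% and 16.0%. Rpl35, with the lowest ratio, and Rpl14, with one of the highest among core members, both carry long runs across the annotated start (18 and 14 letters). In Rps12 the run begins 8 bases past the start and in Rps27l 12 bases before it, while the Rpl7l1 window holds none. The Rps12 run has 11 letters, of which the printed window holds 7. Several other named members lack a run of 6 letters: the longest is 5 letters in Rps16 and Rpsa, 3 in Rpl41, 5 and 4 in the windows of Rpl22, and 4 at the second start of Rps27l. Rps19 has a run of 7 letters in the last of its 3 windows and no more than 4 in the others. The letters describe annotated starts only; starts used in these cells were not measured.

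Genes that work with the ribosome were set beside the members. Of 20 other genes known for TOP mRNAs, 19 had ratios below 1, 3 were lower (15% of the list, against 4.47% of all genes) and 0 higher, with a median of 0.771. Eef1b2, an elongation factor subunit, had 533 and 871 CPM (0.613), Npm1, a nucleolar chaperone, 638 and 957 CPM (0.666), and Tpt1 2682 and 3882 CPM (0.691). Fau, whose ribosomal protein is made as a fusion and so lies outside the symbol rule, had 3660 and 5263 CPM (0.695). Gnb2l1, which encodes the 40S protein RACK1, had 859 and 1207 CPM (0.711). The elongation factor Eef1a1 had 5179 and 6727 CPM (0.770). In cells with under 20% ribosomal protein UMIs, described below, 0 of the 20 were lower, with 16 ratios below 1 and 4 above. Npm1, whose ratio over all cells lay at the edge of the call, had 1.14 (0.979 to 1.34) there.

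Genes that build ribosomes had a median ratio above that of the members and below that of all genes. Of 30 biogenesis genes, 0 were lower and 3 higher (10% of the list, under the 24.2% of all genes that were higher), with a median of 1.10 that turned to 0.903 relative to the all-gene median and to 0.917 when scaled to UMIs outside the members. Gnl3, a nucleolar GTPase, had 40.3 and 24.4 CPM (1.65, 1.28 to 2.12), Mybbp1a 33.4 and 21.5 CPM (1.55), Ddx21 94.1 and 65.6 CPM (1.43) and Ubtf, a factor for RNA polymerase I, 108 and 80.2 CPM (1.34). Of 77 genes for proteins of the mitochondrial ribosome, 76 were measured; 0 were lower and 3 higher (3.95% of those measured, again under the 24.2% of all genes), with a median of 1.03 that turned to 0.846 relative to the all-gene median. Mrps6 had 78.2 and 46.3 CPM (1.69), Mrpl37 30 and 17.3 CPM (1.73) and Mrpl30 114 and 169 CPM (0.674). Of 14 measured pseudogene symbols, 13 had ratios below 1 and 6 were lower, and their counts are uncertain because they copy members.

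Within each library the cells fell into a ribosome-poor and a ribosome-rich range. To compare cells of unequal depth, each was thinned to 750 UMIs, which kept 1381 PPARg-low and 2394 PPARg-negative cells and dropped 238 and 239 of lower depth. The median ribosomal protein share was 18.1% (quartiles 10.1 and 27.1) in PPARg-low cells and 35.2% (27.2 and 40.6) in PPARg-negative cells. Without thinning the medians over all kept cells were 13.9 and 34.5%. The fullest 2-point bin of PPARg-low cells was 8 to 10% with 14.7% of cells, with another peak at 26 to 28% (7.97% of cells); in PPARg-negative cells it was 34 to 36% with 9.77% of cells, with a smaller peak at 12 to 14% (4.55%). A thinned PPARg-low cell had UMIs from a median of 61 members and a PPARg-negative cell from 73.

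**Figure D2:**
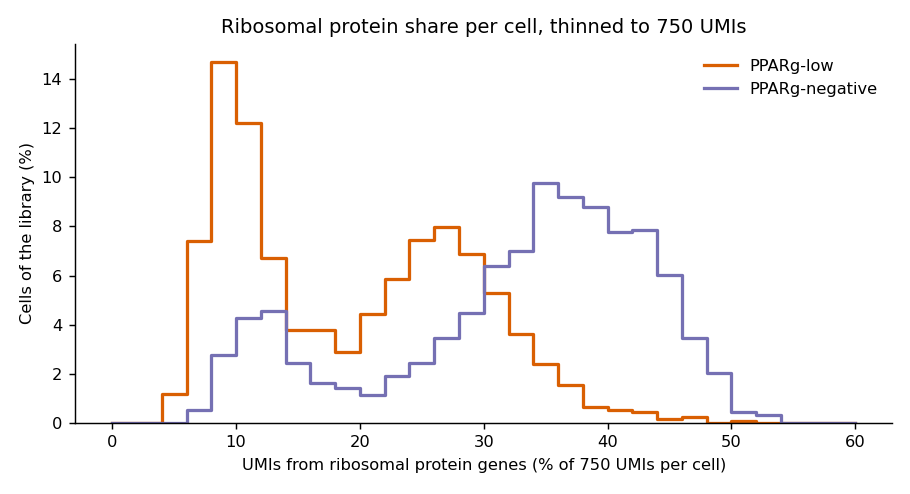
Share of cells of each library (y axis, %) in 2-point bins of the ribosomal protein share of 750 UMIs per cell (x axis, %), with PPARg-low in orange and PPARg-negative in violet. Both libraries have a low and a high peak; the low peak holds more of the PPARg-low cells, and the high peak lies near 27% in PPARg-low cells and 35% in PPARg-negative cells.

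Cells were split at a share of 20% of their full UMIs, which lies near the trough of both libraries. This cut uses the measure it splits, so the values on either side are a description. Ribosome-poor cells numbered 958 (59.2%, 56.7 to 61.6) of the PPARg-low cells and 623 (23.7%, 22.0 to 25.3) of the PPARg-negative ones. The 727 and 422 of them with at least 750 UMIs held median mitochondrial shares of 6.27 and 6.13% and median Malat1 shares of 7.20 and 7.33% of thinned UMIs, against 2.73 and 2.27% and 3.47 and 2.40% in the 654 and 1972 ribosome-rich cells of that depth. Malat1 is a nuclear RNA, and its UMIs were 48431 CPM in the PPARg-low and 30670 CPM in the PPARg-negative library. Among these cells of at least 750 UMIs, ribosome-poor ones had median depths of 1123 and 1018 UMIs, against 2308 and 2482 for ribosome-rich ones. Barcodes left out for mitochondrial UMIs had lower shares still, 9.29 and 11.9%. The part of RNA quality and depth in the members' ratios was not tested.

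Among ribosome-rich cells 9 core members were lower and the core median was 0.752, where 3.75% of all genes were lower; among ribosome-poor cells 0 were lower and the median was 0.883, where 4.98% of all genes were lower and 5.75% higher. Among the 9 were Rpl35 (0.595), Rps20 (0.605), Rpl31 (0.618), Rpl35a (0.631), Rpl8 (0.633), Rps19 (0.640) and Rps29 (0.645). Each of these was also among the 8 lowest members over all cells, which include these cells. Rps12 was slightly above 1 in ribosome-rich cells (1.08, 1.03 to 1.12) and had a ratio of 0.945 in ribosome-poor cells. Rps27l had a ratio of 1.51 (1.37 to 1.67) in ribosome-rich cells, which passes the threshold for higher that 17.7% of all genes passed there. In cells with at most 5% mitochondrial UMIs 23 members were lower, where 3.69% of all genes were, and the core median was 0.700.

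By depth, measured before thinning, the medians were as follows. In cells with 750 to 1000 UMIs the median share was 9.47% in PPARg-low cells and 12.8% in PPARg-negative cells, with 1000 to 1500 UMIs 10.4 and 18.7%, with 1500 to 2500 UMIs 24.8 and 34.1%, with 2500 to 4000 UMIs 26.5 and 39.1%, and above 4000 UMIs 27.5 and 42.3%. The share was higher in deeper cells of both libraries, and lower in PPARg-low cells in each class. By mitochondrial share the medians were 24.9 and 36.8% below 2%, 26.7 and 36.8% at 2 to 4%, 11.7 and 14.6% at 4 to 6%, 10.0 and 12.8% at 6 to 8% and 9.73 and 11.8% above 8%. The libraries lay within 3 points of each other in the classes above 4% and about 10 or more points apart in those below it. With depth and mitochondrial share both restricted, at 1500 to 2500 UMIs and 2 to 4% mitochondrial UMIs, they were 26.7% (quartiles 23.5 and 30.5) over 312 PPARg-low cells and 34.5% (30.3 and 38.3) over 557 PPARg-negative cells. This matched class was chosen after the data were seen.

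The ribosomal protein share was lower in cells with more transcripts of effector Treg genes, in both libraries. The effector list held 18 genes such as Icos, Tigit, Klrg1, Il10 and Maf, and cells were classed by its UMIs after thinning. Both counts come from the same 750 UMIs, so a cell with fewer ribosomal protein UMIs holds more UMIs of other genes. The classes, the Klrg1 split and the later contrast of 3 or more over 0 effector UMIs are thus not independent of the share. The part of this coupling in the values was not tested. With 0 effector UMIs the median share was 29.3% over 105 PPARg-low cells and 37.9% over 1208 PPARg-negative cells. With 1 to 2 UMIs it was 26.7 and 34.1%, with 3 to 5 UMIs 22.3 and 17.6%, and with 6 or more 11.5% over 615 PPARg-low cells and 12.9% over 111 PPARg-negative cells. The order of the libraries was thus not the same in every class. UMIs of a list of 13 resting Treg genes such as Ccr7 and Lef1 gave no such steady order: the medians were 19.2 and 30.3% with 0 resting UMIs, 17.5 and 34.4% with 1, 14.3 and 36.5% with 2 to 3, and 25.3 and 35.6% with 4 or more. Klrg1, a marker of differentiated effector cells, split cells likewise: the median was 12.5 and 13.4% in cells with a Klrg1 UMI, against 22.9 and 35.5% in cells without. These classes also differed in quality measures: the median mitochondrial share was 5.60 and 4.80% with 6 or more effector UMIs, against 2.40 and 2.27% with 0. In the cells matched for depth and mitochondrial share the medians were 30 and 35.5% with 0 effector UMIs, 29.1 and 34.2% with 1 to 2, 26.5 and 28.8% with 3 to 5 and 24.4 and 20.5% with 6 or more, the last over 91 and 13 cells. There the medians differed less between the class with 0 and that with 6 or more UMIs than over all cells, and were lower in the highest class in both libraries. Ribosome-poor cells with 0 effector UMIs were few, 14 PPARg-low and 60 PPARg-negative. UMIs of mitochondrial ribosomal protein genes averaged 3.25 and 3.50 per 750 over all thinned cells. They too were lower in ribosome-poor cells (2.63 and 2.40) than in ribosome-rich ones (3.95 and 3.73). With 0 effector UMIs they averaged 3.82 and 3.62, and with 6 or more 3.04 and 2.85. In the matched cells these averages were 3.90 and 3.60 with 0 and 4.12 and 3.38 with 6 or more.

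**Figure D3:**
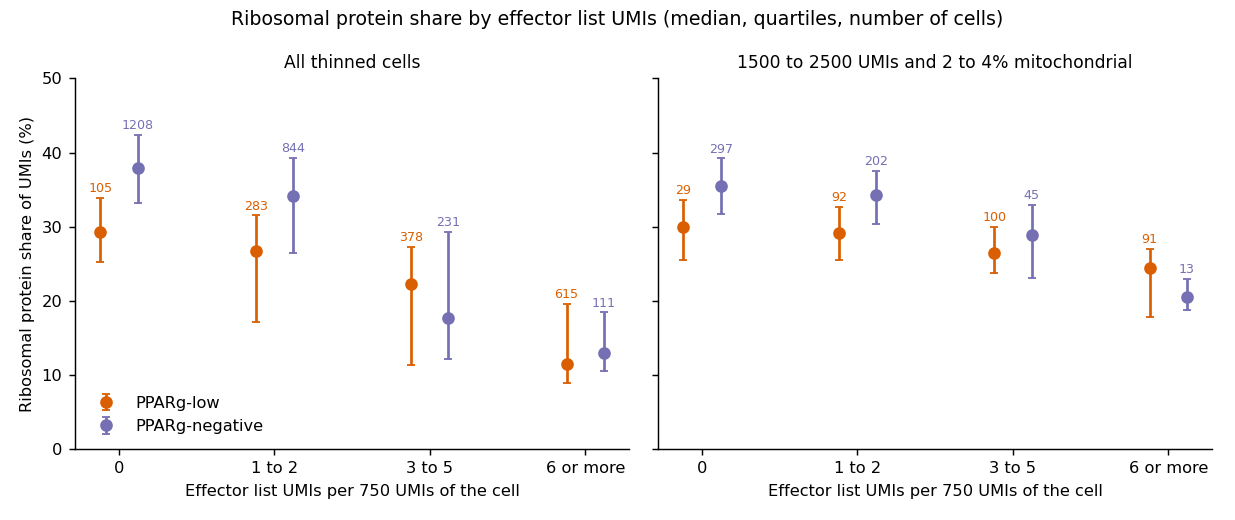
Median ribosomal protein share (y axis, % of 750 UMIs, bars for quartiles, numbers of cells above) by effector list UMIs per cell (x axis), PPARg-low left of PPARg-negative, for all thinned cells (left panel) and cells with 1500 to 2500 UMIs and 2 to 4% mitochondrial UMIs (right panel). The share is lower with more effector UMIs in both panels, 29.3 to 11.5% and 37.9 to 12.9% over all cells and 30 to 24.4% and 35.5 to 20.5% in the matched cells.

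The same contrast within a library shows which members differ between effector and other cells without setting one library against the other. In ribosome-rich cells, 363 PPARg-low and 127 PPARg-negative cells with 3 or more effector UMIs were set over 91 and 1148 cells with 0. The median CPM ratio of the core members was 0.833 within PPARg-low and 0.799 within PPARg-negative cells, with 74 and 77 of 77 below 1. This contrast was computed for the members only. Whether they differ from other genes in these cells was therefore not tested. Within the pool, 18 and 10 members had a lower share and 16 and 11 a higher one with intervals clear of 1. Lower in both libraries were 7 core members, among them Rpl35, Rpl35a, Rplp0, Rps16, Rps19 and Rps28, and higher in both were 7 others (Rpl7a, Rpl37a, Rpl38, Rpl41, Rps12, Rps13 and Rps15a), and 0 members went opposite ways. Rpl35 had pool ratios of 0.809 (0.747 to 0.876) and 0.893 (0.837 to 0.951), and Rps12 of 1.22 (1.09 to 1.36) and 1.24 (1.13 to 1.36). Rps27l, with 363 and 111 UMIs in the cells with effector transcripts, had the highest pool ratios shown, 2.23 (1.68 to 3.02) within PPARg-low and 2.05 (1.66 to 2.51) within PPARg-negative cells. Members with low or high pool ratios between the libraries, such as Rpl35, Rps12 and Rps27l, thus had pool ratios on the same side in both libraries on their own. This contrast was chosen after the data were seen, and it uses the cells of the same libraries.

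**Figure D4:**
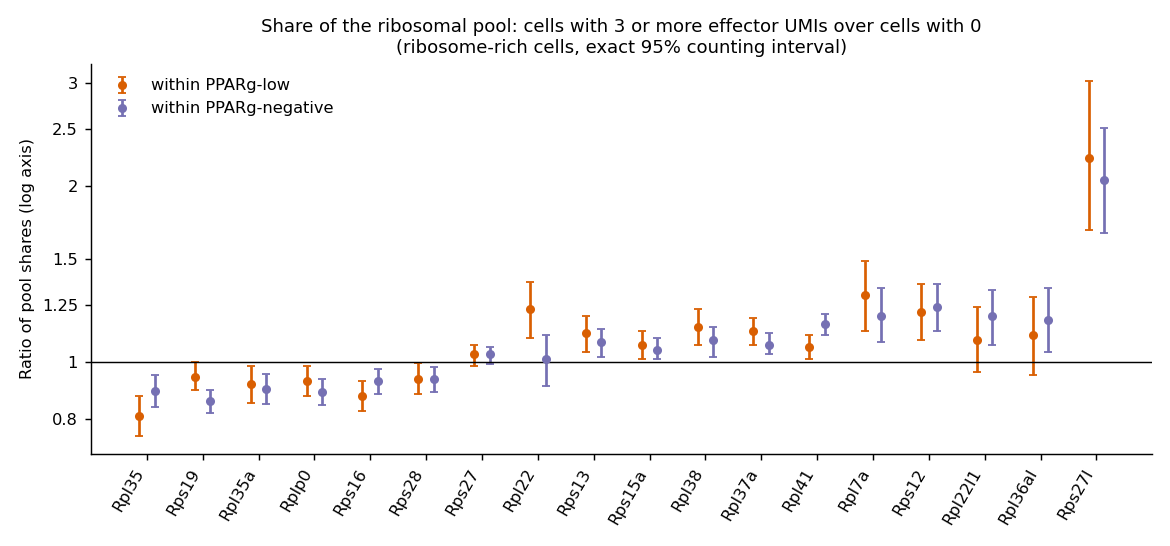
Ratio of each member's share of the ribosomal pool in ribosome-rich cells with 3 or more effector UMIs over those with 0 (log axis), within PPARg-low (orange, left) and within PPARg-negative cells (violet), with exact 95% counting intervals. Rpl35 (0.809 and 0.893) lies below 1 in both libraries, and Rps12 (1.22 and 1.24) and Rps27l (2.23 and 2.05) lie above it.

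Ribosome-poor cells held a pool of another composition than ribosome-rich cells, in a way that was related to coding length. The pool share ratio of ribosome-poor over ribosome-rich cells ran from 0.795 to 1.32 over the core members in PPARg-low cells and from 0.686 to 1.47 in PPARg-negative cells. Rps28, with a coding length of 210 bases, had 0.795 and 0.778, whereas Rpl4, with 1260 bases, had 1.32 and 1.35 and Rpsa, the laminin receptor precursor with 888 bases, 1.26 and 1.47. Rpl41, the shortest with 78 bases, had 1.01 and 1.09 and does not follow this order. Rpl35, with 372 bases, had 0.847 in PPARg-low cells and 0.697 in PPARg-negative cells. Across the 77 core genes Spearman's rho with coding length was 0.61 in PPARg-low cells and 0.48 in PPARg-negative cells (Pearson's r 0.62 and 0.48), as a description over genes that share libraries and depth. With the length of the whole transcript the relation was weaker, with rho of 0.37 and 0.21 (Pearson's r 0.16 and 0.04). Of the 26 genes with the shortest coding length (78 to 408 bases) the median was 0.925 and 0.875, and of the 26 with the longest (579 to 1260 bases) 1.10 and 1.12. Ratios between the libraries had no such relation, with medians of 0.623 for the shortest and 0.631 for the longest genes.

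**Figure D5:**
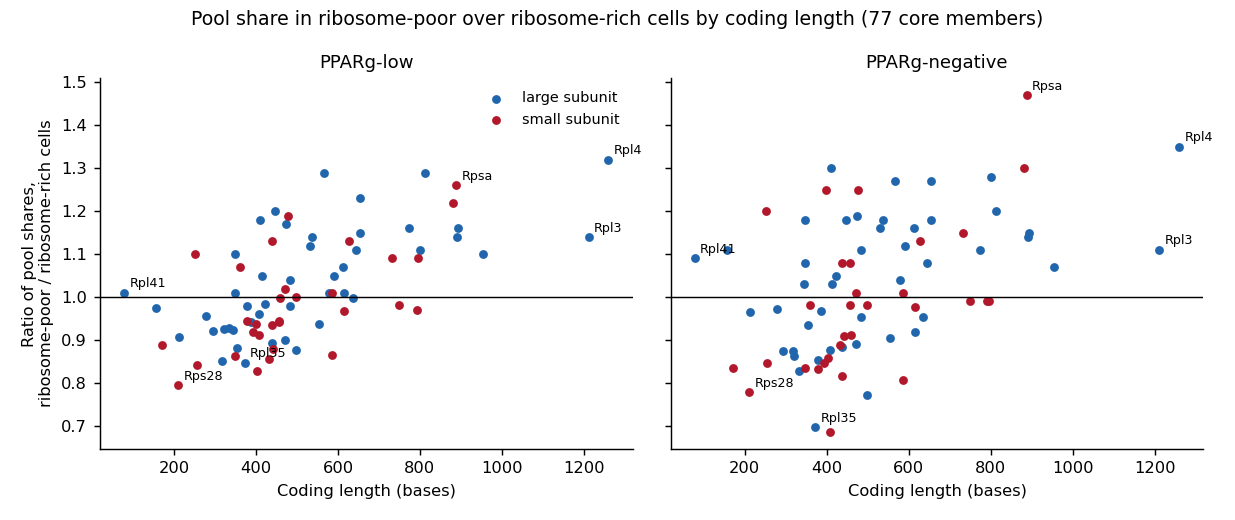
Ratio of pool shares in ribosome-poor over ribosome-rich cells (y axis) by coding length in bases (x axis) for the 77 core members, with PPARg-low cells in the left and PPARg-negative cells in the right panel. Genes with a long coding sequence such as Rpl4 (1.32 and 1.35) tend to lie above 1 and those with a short one such as Rps28 (0.795 and 0.778) below it, with Rpl41 (1.01 and 1.09) as an exception.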

How the data were processed

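The authors deposited raw UMI counts, a matrix of genes by barcodes for each library, made with the Chromium 3′ v2 kit per the labels. Cell Ranger 2.1.0 and mm10 are named in the submitters' processing notes. The annotation, cell calling and the counting of reads that match several genes were not given in the sources used. The deposited files of the PPARg-low library carry the tag pos, and the label's word is used. Of 1992 PPARg-low and 2902 PPARg-negative barcodes, 373 and 269 were removed for over 10% mitochondrial UMIs, and a minimum of 200 genes was set. Scrublet (scanpy 1.11.5) marked 11 (0.679%) and 8 (0.304%) cells, which were kept; some doublets may be unmarked.

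Kept cells were summed by library. Each ratio sets PPARg-low CPM over PPARg-negative CPM, with an exact interval from the conditional binomial distribution; shares have Clopper-Pearson intervals. With 1 library per group there was no test. Genes with 30 or more UMIs over both libraries were measured, and a count of 0 was read as up to 3 counts. In counts simulated for the 9224 genes with 200 changed, the interval covered the true ratio in 95.6% of genes left unchanged and in 93.5% of those changed. These counts were drawn as Poisson counts, the model that the interval assumes, without variation between cells, mice or libraries. The simulation thus checks the calculation and not the spread between libraries. Named members are the 6 highest and 6 lowest by level and the 8 highest and 8 lowest by ratio. They also include the 6 highest and 6 lowest by the ratio of pool shares between the libraries. The small structural groups and the matches that are not core subunits were named as well. Both ratios were ranked by the interval bound nearest to 1, and up to 4 genes of each companion list were named. Others named for a threshold, a group or a shared direction (Rps3, Rps13, Rps15a, Rps16, Rps28, Rpl4, Rpl38, Rpsa, Fau, Gnb2l1, Eef1a1 and the pseudogenes) were chosen after their values were seen. Some genes that these rules name are not reported here. The members, lists and splits were chosen with earlier results of these data known. GENCODE M21 (mm10) held all 87 members and gave lengths and coding sequences. Alternatives covered cell filters, doublets, scaling, cell weights, thinning, count minimums and the split by ribosomal share. Software was Biopython 1.88, matplotlib 3.10.9, pandas 2.3.3, scipy 1.17.1 and numpy 2.4.6 under Python 3.11.15.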

Additional observations from a re-analysis of the deposited data

How the results depend on the processing

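No paired analysis was possible because each group is 1 library. All 77 core members kept ratios below 1 under every cell filter, scaling, weight and thinning that was run, except in ribosome-poor and ribosome-rich cells, where 76 were below 1. Beside the 56 members called lower, 23 were lower with at most 5% mitochondrial UMIs, 0 in ribosome-poor cells and 9 in ribosome-rich ones, and 1 was higher in each of the last sets (Rps19bp1 and Rps27l). Other settings gave 47 to 80, all but the 47 and 50 (totals without mitochondrially encoded genes and Malat1, and at least 500 genes) holding all 56. The core median of 0.633 was 0.700 at 5% mitochondrial UMIs, 0.585 with cells weighted equally, 0.594 thinned, 0.883 and 0.752 in ribosome-poor and ribosome-rich cells, 0.527 without the members in the total, 0.655 without mitochondrially encoded genes and Malat1, and 0.519 relative to all genes. In this order, the mitochondrial ribosomal protein median of 1.03 was 1.10, 0.928, 0.935, 1.10, 1.12, 0.859, 1.07 and 0.846. The other TOP median of 0.771 was 0.915 in ribosome-poor cells, 0.642 without the members and 0.632 relative to all genes; the biogenesis median of 1.10 turned to 0.917 and 0.903 in the same scalings, by whose construction all ratios shift together. Rps12 turned to 1.08 in ribosome-rich cells, and the cause was not tested.

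The ratio of the library shares, 0.623, was 0.603 over all barcodes, 0.703 at 5% mitochondrial UMIs, 0.637 with 500 genes, 0.575 with equal weights, 0.589 thinned, 0.882 and 0.756 in ribosome-poor and ribosome-rich cells and 0.645 without mitochondrially encoded genes and Malat1. Pool share ratios with equal weights, thinned and in ribosome-poor cells were 0.731, 0.739 and 0.957 for Rpl35; those of Rps12 were 1.45 thinned and 1.07 in ribosome-poor cells, and that of Rps27l was 1.5 in ribosome-poor cells. The median share per cell, 18.1 and 35.2% in PPARg-low and PPARg-negative cells, was 13.9 and 34.5% unthinned, 14.2 and 34.4% at 500 UMIs, 25.4 and 37.0% at 1500 UMIs, 14.9 and 34.7% over all barcodes and 25.5 and 36.8% at 5% mitochondrial UMIs. Deeper thinning leaves out the shallow cells, which are poor in ribosomal protein UMIs. Depth limits Rps19bp1, Rpl7l1 and Rpl39l, whose CPM intervals over all cells include 1. The call of Rps19bp1 as higher in ribosome-poor cells (3.25, 1.24 to 10.8) rested on 28 PPARg-low and 5 PPARg-negative UMIs.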
